A study of Mus musculus with 40 samples.

Results

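The miR-378 family of blood microRNAs was followed in male C57B/6J mice that were 12, 13.5, 15 or 16.5 months old, with 10 small RNA libraries of total blood per age and 40 in all. Its 5 rows, mmu-miR-378a-3p, mmu-miR-378a-5p, mmu-miR-378b, mmu-miR-378c and mmu-miR-378d (written without the species prefix from here), were taken by name from the 1915 mature microRNAs of the count table. The family was chosen by its course over age in these same libraries, so its differences between ages are given below as a description and not as tests. The labels give the age and the tissue alone, all animals came from 1 inbred strain and were housed singly, and blood was drawn repeatedly from the orbital sinus. The study's methods describe memory training and testing between bleedings for a part of the animals, and the labels do not tell those animals from the others. Per those methods, the 12-month blood was drawn first, ahead of any behavioural test, and later draws followed the memory tests. Age therefore cannot be told apart from the number of bleedings, or in trained animals from training.

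MicroRNAs are short RNAs cut from a hairpin. One strand is usually retained in the silencing complex, where its seed, the bases from position 2 to 8, pairs with messenger RNAs and lowers their output. The hairpin of miR-378a lies within Ppargc1b, the gene of PGC-1β, a coactivator of transcription that raises mitochondrial and lipid metabolism genes. miR-378a-3p is the strand mostly retained, and miR-378a-5p is the other strand of the same hairpin. Loss of miR-378a in mice is known to raise energy use and to protect against diet-induced weight gain. miR-378b, miR-378c and miR-378d come from hairpins of their own, and their separate functions are less studied.

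The mature sequences below show how close the rows are and where their seeds part. They are RefSeq entries on GRCm38.p6, found for 3 of the 5 rows, read 5′ to 3′, with the seed in capitals.
miR-378c: aCUGGACUuggagucagaagc
miR-378b: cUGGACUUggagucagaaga
miR-378d: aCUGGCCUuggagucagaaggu
No pair of these 3 had the same seed. The seed of miR-378b is that of miR-378c moved by 1 base, since miR-378b lacks the first base of miR-378c. Counted from 1 at the 5′ end of miR-378c, miR-378d differs by A6C, inside the seed, and by C21G, and miR-378b differs by C21A. No other mature microRNA among the 1738 in the RefSeq table had any of these 3 seeds. That table held no entry for miR-378a-3p or miR-378a-5p, so these rows could not be compared with the 3 by seed or by shared run. miR-378b and miR-378c share an unbroken run of 19 bases, longer than the shortest read that was kept (18 bases), whereas miR-378d shares no run above 14 bases with either. Short reads could thus fit both miR-378b and miR-378c, and how reads divide among near-identical family rows is uncertain. The part of such reads in the values was not tested.

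Of these hairpins, Mir378c lies on chromosome 14, 46954830 to 46954928, minus strand, across from an intron of Samd4, and Mir378b on chromosome 11, 88352773 to 88352864, plus strand, across from an intron of Msi2. Mir378d lies on chromosome 10, 126710282 to 126710391, minus strand, in no other annotated gene, with the nearest, Gm47966, 3614 bp away. The annotation is GENCODE M21 on GRCm38.

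Mir378a lies on chromosome 18, 61397835 to 61397900, on the minus strand, where it sits in an intron of Ppargc1b and is transcribed in the same direction. It is the only hairpin of the family in this annotation that runs in the direction of a gene that holds it. A small microRNA gene model, Gm25301, is annotated on the opposite strand at the same place.

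The libraries held 2469196 to 21386209 counts, but most of these were red-cell miR-486, whose reads were entered in 2 rows. Counts outside miR-486 were 93002 to 1739959 per library and spanned 114748 to 412457 at 15 months, below every 12-month library. Mean shares outside miR-486, with its reads counted once, were 13.4% at 12 months, 13.1% at 13.5 months, 7.93% at 15 months and 12.2% at 16.5 months. The red-cell list (5 rows) summed to a median of 1246170 CPM at 15 months against 719936 to 772344 at the other ages, where CPM is a count scaled to the library's size and its TMM factor, so that a sum of CPM is not a share of the library. Of the 6 muscle markers, miR-1a-3p, miR-206-3p and miR-208a-3p had no read in any library, while miR-133a-3p had reads in 39 of 40, at most 233. The list summed to a median of 2.15 to 3.95 CPM per age. The liver marker miR-122-5p had at most 3 counts. Of the 2 fat markers, miR-143-3p had reads in 40 of 40 libraries, at most 1998. The fat list summed to a median of 3.19 to 5.78 CPM per age and reached 87.5 CPM in a 12-month library. The platelet and endothelial list (2 rows) had medians of 2.19, 0.732, 1.34 and 1.04 CPM at the 4 ages in order. In total blood, fewer cells of a type and less RNA per cell cannot be told apart.

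miR-378a-3p was the most abundant row. It supplied 70.8% of the 65287 reads of the family, followed by miR-378c with 23.8%, miR-378d with 3.67%, miR-378a-5p with 1.36% and miR-378b with 0.378%. miR-378a-3p, miR-378c and miR-378d had reads in 40 of 40 libraries, miR-378a-5p in 39 and miR-378b in 36. Tests covered the 105 microRNAs that passed a filter on low counts (above 100 reads in at least 20 of 40 libraries). Among these, miR-378a-3p ranked 45 by mean level (102 CPM) and miR-378c ranked 67 (34.8 CPM). The other 3 rows lay below this filter and are described from their counts and from a fit to the 345 microRNAs that had above 1 read in at least 20 libraries.

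miR-378a-3p had its highest level at 13.5 months. At 12 months its lowest, median and highest libraries held 75.5, 91.5 and 105 CPM. At 13.5 months these were 87.1, 129 and 148 CPM. At 15 months they were 77.3, 97.2 and 117 CPM, and at 16.5 months 70.8, 86.9 and 109 CPM. Thus 9 of 10 libraries at 13.5 months stood above the highest 12-month library, and the tenth lay within the 12-month range, while the ranges of the other 3 ages overlapped widely. In raw counts, miR-378a-3p ranged from 100 in the shallowest library to 3020.

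Mean levels of miR-378a-3p, in log2 CPM, with SDs over n = 10 libraries each, were 6.54 ± 0.16, 6.98 ± 0.24, 6.62 ± 0.18 and 6.43 ± 0.21 at the 4 ages in order. In rising order the ages were 16.5, 12, 15 and 13.5 months. The neighbours 16.5 and 12 months, and 12 and 15 months, differed by less than the larger SD of the pair, and 15 and 13.5 months differed by more. The fitted log2 difference was 0.45 (SE 0.10) at 13.5 v 12 months, -0.36 (SE 0.10) at 15 v 13.5 months and -0.55 (SE 0.10) at 16.5 v 13.5 months. Between 15 and 12 months it was 0.09 (SE 0.10), between 16.5 and 12 months -0.10 (SE 0.10) and between 16.5 and 15 months -0.19 (SE 0.10). The level at 13.5 months was therefore 1.37 times that at 12 months, and the level at 16.5 months was 0.682 of that at 13.5 months.

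**Figure D1:**
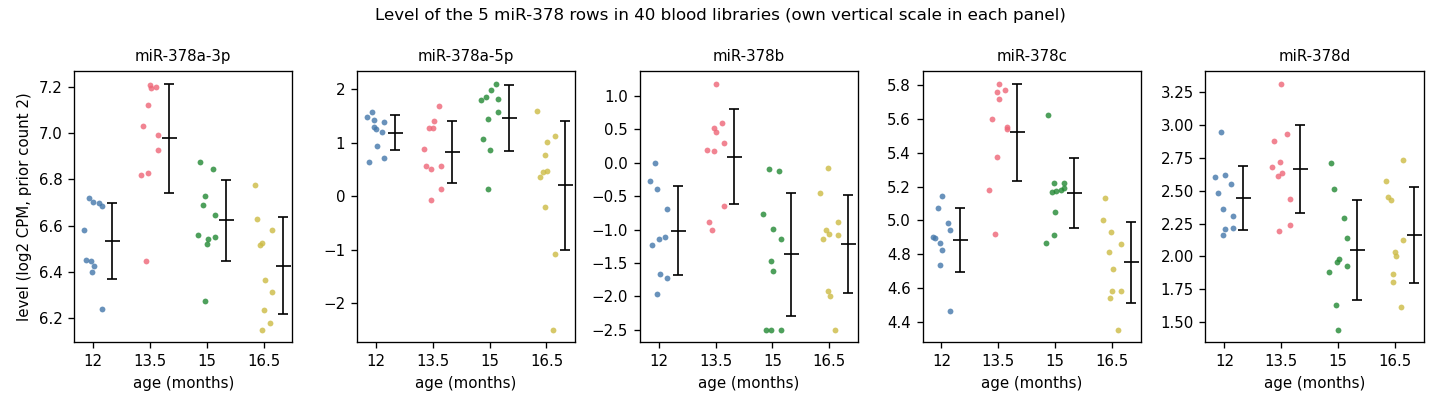
Level of each miR-378 row (vertical axis, log2 CPM with a prior count of 2, own scale in each panel) against age in months, 1 point per library and the mean with its SD beside each group of 10. miR-378a-3p, miR-378b and miR-378c have their highest mean at 13.5 months, miR-378d too but by less than its spread, and miR-378a-5p at 15 months.

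miR-378c followed a course close to that of miR-378a-3p, with a wider span. Its lowest, median and highest libraries held 21.9, 29.6 and 35.2 CPM at 12 months and 30.1, 47.5 and 55.9 CPM at 13.5 months. They held 29.0, 36.1 and 49.1 CPM at 15 months, and 20.2, 27.0 and 35.0 CPM at 16.5 months. As for miR-378a-3p, 9 of 10 libraries at 13.5 months lay above the whole 12-month range. Unlike it, 7 of 10 libraries at 15 months also lay above that range, against 3 of 10 for miR-378a-3p.

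The mean log2 CPM of miR-378c, with SDs over n = 10 libraries each, was 4.88 ± 0.19, 5.52 ± 0.29, 5.16 ± 0.21 and 4.75 ± 0.24 at the 4 ages in order. The order of the ages was that of miR-378a-3p, and only 16.5 and 12 months, as neighbours in it, differed by less than the larger SD. Fitted log2 differences were 0.65 (SE 0.11) at 13.5 v 12 months and 0.28 (SE 0.11) at 15 v 12 months. Against 13.5 months the later ages differed by -0.38 (SE 0.11) at 15 months and by -0.78 (SE 0.11) at 16.5 months. The last step, 16.5 v 15 months, was -0.40 (SE 0.11), and 16.5 v 12 months was -0.12 (SE 0.11). The 13.5-month level was thus 1.57 times the 12-month level, and the 16.5-month level 0.584 of the 13.5-month level.

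Both tested rows passed an adjusted p of 0.05 over the 4 ages (edgeR, 2 of 2), where 61% of all 105 microRNAs did so. Both passed at 13.5 v 12 months (background 29.5%), at 15 v 13.5 months (47.6%) and at 16.5 v 13.5 months (40%). Neither passed at 15 v 12 months (23.8%) or at 16.5 v 12 months (23.8%), where DESeq2 called 1 (background 21.9%) and 0 (28.6%). miR-378c alone passed at 16.5 v 15 months (28.6% in either direction, 9.52% downward). The family was chosen on these contrasts, and nothing is read from these counts. The call of miR-378c at 15 v 12 months depended on the method, since it passed upward under 6 of 13 alternatives and downward under library totals alone. That of miR-378a-3p at 16.5 v 15 months, too, passed under 4 of 13. With library totals alone, which leave the larger share of miR-486 at 15 months unscaled, the log2 difference at 15 v 12 months turned to -0.70 for miR-378a-3p and -0.53 for miR-378c, beside a median of -0.84 over all microRNAs tested. With the same scaling, 16.5 v 15 months turned to 0.41 for miR-378a-3p and 0.22 for miR-378c, beside a median of 0.65.

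**Figure D2:**
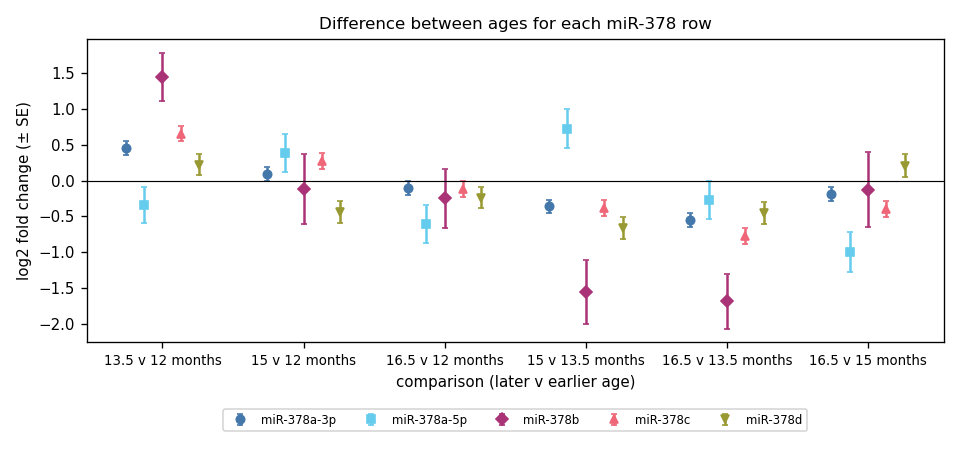
Log2 fold change (vertical axis, with its SE) of each row in the 6 comparisons between ages, from the fit to 105 microRNAs for miR-378a-3p and miR-378c and from the fit to 345 for the other 3. Between 13.5 and 12 months 4 rows lie above 0 and miR-378a-5p lies below it.

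miR-378d, whose seed differs by 1 base from that of miR-378c, was far less abundant than miR-378a-3p and had its lowest mean at 15 months. Its lowest, median and highest libraries held 4.31, 5.20 and 7.53 CPM at 12 months and 4.39, 6.14 and 9.80 CPM at 13.5 months. They held 2.54, 3.75 and 6.38 CPM at 15 months, and 2.89, 4.05 and 6.47 CPM at 16.5 months. At 15 months, 7 of 10 libraries of miR-378d lay below the lowest 12-month library, at the age where 7 of 10 libraries of miR-378c lay above the highest. The counts behind these values were 10 to 32 per library at 15 months and 4 to 167 over all ages.

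In the fit to 345 microRNAs, miR-378d differed by a log2 of 0.22 (SE 0.15) at 13.5 v 12 months, -0.44 (SE 0.16) at 15 v 12 months and -0.24 (SE 0.15) at 16.5 v 12 months. Against 13.5 months it differed by -0.66 (SE 0.16) at 15 months and by -0.46 (SE 0.15) at 16.5 months. No 2 neighbouring ages, in the order 15, 16.5, 12 and 13.5 months, differed by more than the larger SD of the pair.

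miR-378b was at the edge of detection. Its median count was 4 at 12 months, 11 at 13.5 months, 1 at 15 months and 2 at 16.5 months, and its highest count was 32. In CPM its lowest, median and highest libraries were 0.0790, 0.283 and 0.823 at 12 months and 0.322, 1.01 and 2.10 at 13.5 months. At 15 months they were 0, 0.231 and 0.765, and at 16.5 months 0, 0.300 and 0.769. A count of 0 occurred in 3 libraries at 15 months, where it allows up to 0.928, 1.06 and 1.91 CPM (3 counts), and in 1 library at 16.5 months, where it allows up to 2.17 CPM. These limits cover counting error only and reach the 13.5-month median in 3 of the 4 libraries, so that a lower level in those was not detectable at this depth. At 13.5 months 7 of 10 libraries lay above the highest 12-month library. The log2 difference was 1.44 (SE 0.34) at 13.5 v 12 months, -1.55 (SE 0.44) at 15 v 13.5 months and -1.68 (SE 0.38) at 16.5 v 13.5 months. The summed counts of 10 libraries were 61, 138, 16 and 32 at the 4 ages in order.

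miR-378a-5p, the other strand of the miR-378a hairpin, did not share the maximum at 13.5 months. Its lowest, median and highest libraries held 1.39, 2.25 and 2.82 CPM at 12 months and 0.782, 1.49 and 3.07 CPM at 13.5 months. They held 0.928, 3.06 and 4.14 CPM at 15 months, and 0, 1.20 and 2.84 CPM at 16.5 months. The ranges of all 4 ages overlapped, with 5 of 10 libraries at 13.5 months below the lowest 12-month library and 6 of 10 libraries at 15 months above the highest. The library at 0 was the shallowest of the series, where a count of 0 allows up to 2.17 CPM.

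Log2 differences of miR-378a-5p were -0.34 (SE 0.25) at 13.5 v 12 months, 0.38 (SE 0.26) at 15 v 12 months and -0.61 (SE 0.26) at 16.5 v 12 months. Between the later ages they were 0.72 (SE 0.27) at 15 v 13.5 months, -0.27 (SE 0.27) at 16.5 v 13.5 months and -0.99 (SE 0.28) at 16.5 v 15 months. Neighbouring ages, in the order 16.5, 13.5, 12 and 15 months, differed by less than the larger SD in each of the 3 pairs.

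To compare rows without a scaling between libraries, each row was expressed per 100 reads of miR-378a-3p in the same library. For miR-378c the lowest, median and highest libraries gave 29.0, 31.6 and 33.9 reads at 12 months and 31.9, 36.7 and 38.8 reads at 13.5 months. They gave 30.8, 36.5 and 41.8 reads at 15 months, and 28.0, 31.1 and 35.4 reads at 16.5 months. The median ratio was therefore higher at 13.5 and 15 months than at 12 and 16.5 months, with 9 of 10 and 8 of 10 libraries, respectively, above the highest 12-month library. Against 12 and 16.5 months together, 14 of 20 libraries at 13.5 and 15 months lay above the highest, so the ranges overlapped. On the log2 scale the SD of the ratio within an age was 0.078, 0.082, 0.14 and 0.095 at the 4 ages in order, beside 0.078, 0.076, 0.14 and 0.14 that counting error alone would give. The second set assumes independent reads in the pair of rows, which may share reads. The mean log2 ratio was -1.66, -1.46, -1.46 and -1.68.

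The column names of the table take 1 form at 12 and 16.5 months and other forms at 13.5 and 15 months, so that the ages with the higher ratio are also those whose column names end in a number. What the forms stand for is not stated, and form and age cannot be told apart. The 15-month columns carry a pair of forms, in 3 and 7 libraries. The median ratio of miR-378c was 37.0 in the 3 and 35.1 in the 7, and the median level of miR-378a-3p was 100.1 CPM and 94.2 CPM.

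**Figure D3:**
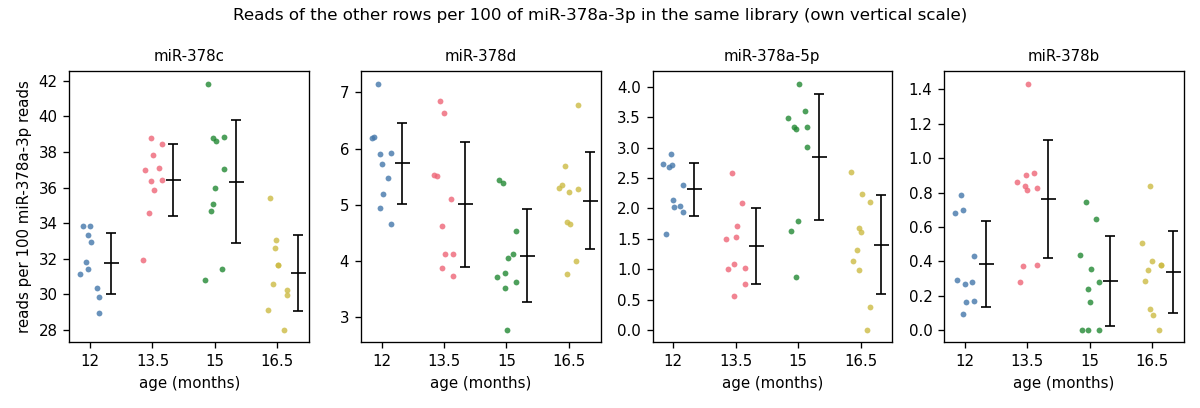
Reads of miR-378c, miR-378d, miR-378a-5p and miR-378b per 100 reads of miR-378a-3p in the same library (vertical axis, own scale in each panel) against age in months, with the mean and SD of 10 libraries. miR-378c lies higher at 13.5 and 15 months, miR-378d lowest at 15 months and miR-378b highest at 13.5 months.

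The other rows stood against miR-378a-3p in different ways over the ages. For miR-378d the median was 5.81 reads per 100 at 12 months, 4.85 at 13.5 months, 3.92 at 15 months and 5.25 at 16.5 months, and 8 of 10 libraries at 15 months lay below the lowest at 12 months. For miR-378a-5p, the ratio of the strands of 1 hairpin, the median was 2.26 reads per 100 at 12 months, 1.29 at 13.5 months, 3.32 at 15 months and 1.46 at 16.5 months. At 13.5 months 7 of 10 libraries of miR-378a-5p lay below the lowest at 12 months, and at 15 months 7 of 10 lay above the highest. The SD of this log2 ratio within an age was 0.27, 0.65, 0.64 and 0.87 at the 4 ages in order. Counting error alone would give 0.26, 0.36, 0.49 and 0.80, and the 15-month libraries held 3 to 28 reads of miR-378a-5p. For the pair of name forms at 15 months, the medians of miR-378a-5p were 1.79 reads in the 3 libraries and 3.34 in the 7. The range of the 3, 1.63 to 3.34, lay within that of the 7, 0.877 to 4.06. The 3 libraries held 11, 12 and 3 reads of miR-378a-5p. For miR-378b the median was 0.284, 0.833, 0.257 and 0.363 reads per 100 at the 4 ages in order.

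Across the 40 libraries the log2 CPM of miR-378c correlated with that of miR-378a-3p at r = 0.943 (Pearson), the highest value among the 104 other microRNAs tested, and at r = 0.902 after the age means were subtracted. These libraries share a scaling and age groups, near-identical rows may share reads, and the values are a description. The other members correlated with miR-378a-3p at r = 0.673 for miR-378d, 0.657 for miR-378b and 0.288 for miR-378a-5p. Within ages miR-378a-3p was among the steadiest microRNAs, with an SD of 0.20 log2, the fifth lowest of 105, and miR-378c was 12th lowest with 0.23, beside a median of 0.37 over all tested.

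**Figure D4:**
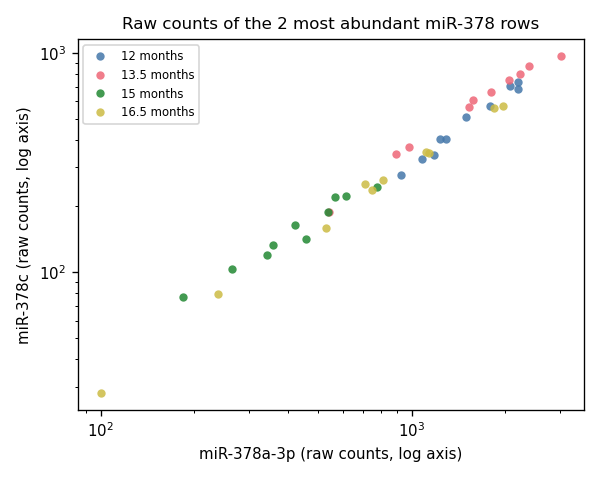
Raw counts of miR-378c (vertical, log axis) against miR-378a-3p (horizontal, log axis) in 40 libraries, coloured by age. Counts run from 100 to 3020 for miR-378a-3p and from 28 to 964 for miR-378c, and the counts of the pair rise together along 1 line, with the 15-month libraries at 776 reads of miR-378a-3p or fewer.

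Outside the family, the 5 microRNAs most similar to miR-378a-3p over the 40 libraries were miR-107-3p (r = 0.840), miR-103-3p (0.835), let-7i-5p (0.832), let-7j (0.768) and miR-181a-5p (0.719). After subtraction of the age means they were miR-103-3p (0.763), miR-107-3p (0.661), let-7i-5p (0.641), miR-181d-5p (0.628) and miR-130a-3p (0.611). miR-103 and miR-107 come from introns of the pantothenate kinase genes, which make enzymes of coenzyme A synthesis. Each of these 7 had its highest mean at 13.5 months. The mean of miR-103-3p was 7.31, 7.75, 7.04 and 6.98 log2 CPM at the 4 ages in order, and that of let-7i-5p was 7.95, 8.73, 7.84 and 7.71 log2 CPM. At the other end, miR-144-5p, a red-cell microRNA, had the lowest correlation with miR-378a-3p (r = -0.702, and -0.307 within ages). It was named for this value and is 1 of 7 red-cell rows tested. At 13.5 v 12 months 2 of these passed an adjusted p of 0.05 downward (edgeR, background 14.3%) and 5 did not pass.

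**Figure D5:**
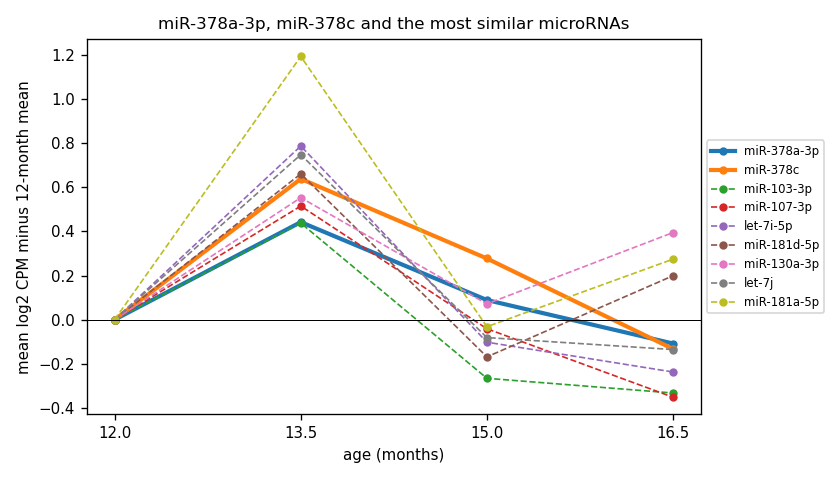
Mean log2 CPM minus its 12-month mean (vertical axis) against age in months for miR-378a-3p and miR-378c (thick lines) and the 7 most similar microRNAs outside the family (dashed). All 9 have their highest mean at 13.5 months, and miR-378c alone stays above 0.2 at 15 months.

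Other microRNAs known for roles in lipid and glucose metabolism were set beside the family, from a list also drawn up with results of these data known, so that its counts are a description. Of 10 listed, 5 were tested, and both directions occurred among them. At 13.5 v 12 months 2 of 5 passed an adjusted p of 0.05 upward (edgeR, background 15.2% in that direction), miR-103-3p with a log2 difference of 0.45 (SE 0.11) and miR-107-3p with 0.52 (SE 0.12). Another 2 passed downward (background 14.3%), miR-26b-5p with -0.92 (SE 0.25) and miR-26a-5p with -0.29 (SE 0.10), both named after their values were seen. The list median was 0.22 beside 0.01 over all tested. At 16.5 v 13.5 months 2 of 5 passed downward (background 21.9%), miR-103-3p with -0.77 (SE 0.11) and miR-107-3p with -0.88 (SE 0.12), and miR-26a-5p passed upward with 0.50 (SE 0.10, background 18.1%). The list median was 0.02 there, as over all tested. At 15 v 12 months 1 of 5 was higher (background 7.62%) and 4 did not pass, and at 16.5 v 12 months 2 were lower (background 10.5%) and 3 did not pass. miR-33-5p, a regulator of cholesterol export, had 1 read in 1 library and miR-33-3p at most 4.

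Red-cell microRNAs were counted in the same way, again as a description. The list of 8 rows holds miR-486-5p as 2 equal rows, and 7 rows were tested. At 13.5 v 12 months, where miR-378a-3p and miR-378c were higher, 2 of 7 passed downward (background 14.3%), miR-451a with a log2 difference of -0.84 (SE 0.33) and miR-144-5p with -1.60 (SE 0.29), and 5 did not pass. At 15 v 12 months 2 passed upward (background 7.62%), both of them the same miR-486-5p reads with 1.01 (SE 0.24), and miR-16-5p passed downward with -0.50 (SE 0.16, background 16.2%). miR-144-5p and miR-451a lay at -0.36 (SE 0.29) and -0.25 (SE 0.33) in that comparison and did not pass. At 15 v 13.5 months 3 passed upward (background 17.1%), of which 2 are the miR-486-5p rows, and 1 passed downward (background 30.5%), with a list median of 0.59 beside -0.02 over all tested. miR-144-5p and miR-16-5p were named after their values were seen.

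Of the white-cell markers, the summed myeloid list had medians of 2871, 2362, 2943 and 2589 CPM and the summed lymphoid list 243, 373, 294 and 357 CPM at the 4 ages in order. The ranges overlapped between ages, with lymphoid sums of 122 to 599 CPM at 13.5 months and 137 to 873 CPM at 16.5 months. At 13.5 v 12 months the 3 tested myeloid markers had log2 differences of -0.59 (SE 0.21) for miR-223-3p, -0.33 (SE 0.13) for miR-142a-5p and -0.54 (SE 0.25) for miR-21a-5p. Of these, miR-223-3p alone passed, downward (background 14.3%). At 15 v 13.5 months they lay at 0.20 (SE 0.21), 0.37 (SE 0.13) and 0.58 (SE 0.26), and miR-142a-5p alone passed, upward (background 17.1%). None passed in the other comparisons. Both lymphoid markers tested passed upward at 16.5 v 12 months (background 13.3%), miR-150-5p with a log2 difference of 0.86 (SE 0.30) and miR-342-3p with 1.10 (SE 0.19), an age difference in which miR-378a-3p and miR-378c lay at -0.10 and -0.12. At 13.5 v 12 months the lymphoid pair lay at 0.69 (SE 0.30) and 0.37 (SE 0.19) and did not pass. At 16.5 v 13.5 months miR-342-3p alone passed, upward with 0.73 (SE 0.19, background 18.1%), and miR-150-5p lay at 0.16 (SE 0.29). At 16.5 v 15 months miR-342-3p alone passed, upward with 0.72 (SE 0.19, background 19%), and miR-150-5p lay at 0.71 (SE 0.30). Neither passed at 15 v 12 or 15 v 13.5 months. The part of the makeup of the blood in the levels of the family was not tested.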

How the data were processed

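Total-blood small RNA libraries were grouped by the ages in the labels. The deposited columns name the age but no replicate number of the labels, so each served as 1 unnumbered library. Per the study's methods, the authors trimmed adapters, dropped reads under 18 bases, mapped to mm10 with the miRDeep2 tools, quantified against miRBase precursors without mismatches and deposited raw counts per mature microRNA, summed over loci; FastQC 0.11.5 is named in their processing notes. Reads fitting near-identical microRNAs may be entered more than once. A second deposited table holds a normalized signal for the same 105 microRNAs, made by multiplying each raw column by a constant of its own (relative deviation at most 4.94e-10).

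The tests used edgeR 4.0.16 under R 4.3.3 (TMM, glmQLFit, glmQLFTest, Benjamini-Hochberg) on microRNAs above 100 reads in at least 50% of the 40 libraries, with 1 model for 4 ages and 6 contrasts. The SE of a log2 fold change is its size divided by the root of F. Levels were expressed as log2 CPM using the same factors and a prior count of 2, relative to a total that counts miR-486 reads in 2 rows. Ratios use 0.5 added to each count on the log2 scale. The members, the lists and the tests were chosen with earlier results of these data known, so members carry no p-value. Named outside the family are the 5 microRNAs most correlated with miR-378a-3p over the libraries and the 5 most correlated within ages, and up to 4 of each list. The labels do not say that libraries come from separate animals, the study bled the same animals repeatedly, and the fits treat 40 libraries as independent. No 2 libraries of an age were duplicates (chi-square per degree of freedom of at least 19.4 in 180 pairs). Alternatives used DESeq2 1.42.0, limma 3.58.1 and other factors, filters and library sets. Hairpins were matched by name to GENCODE M21 and sequences to RefSeq (GRCm38.p6). Figures used matplotlib 3.10.9.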

Additional observations from a re-analysis of the deposited data

Results flagged for a closer look

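Over 36 groups of 10 libraries examined (5 levels and 4 ratios at 4 ages), 2 held a library far from the other 9, where chance marks about 1 group in 20. At 13.5 months the lowest library for miR-378a-3p stood at 6.45 log2 CPM, with the next at 6.82, a gap of 0.491 of the range of that age. At 15 months the highest library for miR-378c stood at 5.62 log2 CPM, with the next at 5.22, a gap of 0.533 of the range.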

How the results depend on the processing

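Both tested rows kept their call over the 4 ages under each of 12 alternatives. The share of all microRNAs that passed ranged from 11.1% (no filter beyond any read) to 86.7% (RUVs factor). The family was chosen on these contrasts, so nothing is read from a kept call. At 13.5 v 12 months and 16.5 v 13.5 months the direction held under each of 13 alternatives for both rows, with log2 differences of 0.40 to 0.47 and -0.73 to -0.50 for miR-378a-3p and of 0.60 to 0.67 and -0.95 to -0.71 for miR-378c. Median-ratio (RLE) factors, omission of the miR-486 rows and DESeq2 each gave 1 row called at 15 v 12 months in place of 0 (miR-378c) and 2 at 16.5 v 15 months in place of 1. Backgrounds were 20%, 18.8% and 21.9% in the first comparison and 32.4%, 29.7% and 34.3% in the second. The fit to only the 2 ages compared gave 2 and 2 (background 26.7% in each). The RUVs factor and limma with voom quality weights each gave 1 at 15 v 12 months (background 41% and 31.4%). Without a filter beyond any read, 1 was called at 13.5 v 12 months (background 4.33%), among 1016 microRNAs tested. That fit called 0 at 15 v 13.5 months (6.79%) and at 16.5 v 15 months (2.07%). Library totals alone gave 1 row called at 13.5 v 12 months (background 11.4%), and also 2 at 15 v 12 (80%) and 0 at 16.5 v 15 months (62.9%). With these totals the log2 differences at 15 v 12, 15 v 13.5 and 16.5 v 15 months came to -0.70, -1.13 and 0.41 for miR-378a-3p and to -0.53, -1.17 and 0.22 for miR-378c, opposite in direction at 15 v 12 and 16.5 v 15 months for both. The median of all tested microRNAs was then -0.84, -0.81 and 0.65 in these comparisons. The cause of these changes, or of those under the other alternatives, was not tested. A pseudocount of 5, and omission of the 1 library with a connectivity Z beyond 2.5, moved the ratios of miR-378c and miR-378a-5p to miR-378a-3p by less than their SD (those of miR-378b and miR-378d were not recomputed), and the deposited normalized signal and counts outside miR-486 moved levels by less than the SD within ages.

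The label replicate number as a block was not run, since the columns do not carry it. The number that opens each column name recurs at the 4 ages. As a replicate block, added after seeing the data, it gave 66 of 105 microRNAs (62.9%) over age in place of 64. The count of called family rows was the same in each comparison (2 over age, 2, 0, 0, 2, 2 and 1). Backgrounds in the 6 comparisons, in that order, were 33.3%, 21.9%, 21.9%, 46.7%, 38.1% and 26.7%. Deviations from the age means of libraries with the same number correlated at r = -0.87 to 0.86 (median -0.03 over 60 pairs, 24 above 0.1). The median over other pairs was 0.01, and 6 of 40 libraries correlated best with their own number. With so wide a range, these values cannot tell whether the number marks an animal. Without the 5 libraries under 200000 reads outside miR-486 (3 at 15 and 2 at 16.5 months), also added after seeing the data, the counts of called family rows were the same. The background was then 64.8% over age and 22.9% to 56.2% in the comparisons between ages.

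miR-378b and miR-378a-5p rest on medians of 1 to 11 and 10 to 32.5 counts per library, and counting intervals cover counting error only.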
